A study of Rattus norvegicus with 12 samples.

Results

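Vgf, the granins and the enzymes that cut prohormones were followed through 48 h of altered firing in cultured rat hippocampal neurons. The genes were taken by name, with every probe whose gene name in the array files matched: the neuropeptide precursor Vgf, the chromogranins and secretogranins Chga, Chgb, Scg2 and Scg3, the prohormone convertases Pcsk1 and Pcsk2, the convertase chaperone Scg5 (listed as Sgne1), the convertase inhibitor Pcsk1n and the carboxypeptidase Cpe. They comprise 10 of 35732 gene names and 16 of 41012 probes on the array. All 10 names were found, and all 16 probes were well above background, with no saturated spot and no outlier spot, on each of the 12 arrays.

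The cultures were dissociated hippocampal neurons from Sprague-Dawley rat embryos at E18.5, plated at high density. Treatment lasted 48 h and was started at 10 to 13 days in vitro. Cultures received vehicle alone (CTL, 0.1% DMSO in the sample labels, whereas the study's text gives water), tetrodotoxin (TTX, at 0.5 to 1 μM), which blocks sodium channels and so stops action potentials, or bicuculline (BC, at 20 μM), which blocks GABA-A receptors and so removes inhibition. Each group had 4 RNA samples, each on 1 single-color Agilent array, and the 2 treated groups share the same 4 CTL arrays. Whether these samples are separate cultures is not stated in the labels, so the tests compare differences with a scatter that may be technical only.

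Neurons pack neuropeptides into dense-core vesicles, which are released on sustained firing rather than with each action potential. Granins are acidic proteins that aggregate in the trans-Golgi network and help to form these vesicles, and several are cut into active peptides themselves. Pcsk1 and Pcsk2 cut precursors after pairs of basic residues, Cpe trims the basic residues left behind, and Pam then amidates many peptide ends. Scg5 escorts the Pcsk2 precursor and Pcsk1n holds Pcsk1 back. Vgf is an activity- and neurotrophin-responsive member of the group, and its peptides act on synaptic transmission and energy balance.

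Promoters are shown here because Vgf and Scg2 are known as targets of transcription factors that bind the cyclic AMP response element (CRE). RefSeq sequences (GRCr8) were given for 8 of the 10 genes, with Chga and Pcsk1 as the exceptions. The 250 bases before the annotated start were searched on both strands for the full CRE TGACGTCA, its shorter core TGACG (which lies within the full CRE), the AP-1 letters TGANTCA, the box CCAAT, the EGR letters GCGTGGGCG and TATAAA. The Vgf window (chr12:25277021-25277270, minus strand) and the Scg2 window (chr9:88256867-88257116, minus strand) each held the full CRE. The Scg3 window (chr8:85322485-85322734, minus strand) and the Pcsk2 window (chr3:151333688-151333937, plus strand) held the shorter core alone. Capitals mark the full CRE or the shorter core (in Pcsk2 on the opposite strand), each promoter read from 5′ to 3′ toward the start.
Vgf: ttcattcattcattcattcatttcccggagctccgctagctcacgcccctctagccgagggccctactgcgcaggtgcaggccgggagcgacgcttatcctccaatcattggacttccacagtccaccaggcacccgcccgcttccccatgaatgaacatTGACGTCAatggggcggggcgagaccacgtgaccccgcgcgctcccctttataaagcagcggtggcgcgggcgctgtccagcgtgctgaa
Scg2: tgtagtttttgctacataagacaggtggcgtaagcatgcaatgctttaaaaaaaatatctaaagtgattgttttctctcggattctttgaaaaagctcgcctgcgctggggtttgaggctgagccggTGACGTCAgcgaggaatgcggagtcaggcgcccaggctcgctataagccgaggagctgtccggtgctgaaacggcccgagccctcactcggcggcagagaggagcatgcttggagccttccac
Scg3: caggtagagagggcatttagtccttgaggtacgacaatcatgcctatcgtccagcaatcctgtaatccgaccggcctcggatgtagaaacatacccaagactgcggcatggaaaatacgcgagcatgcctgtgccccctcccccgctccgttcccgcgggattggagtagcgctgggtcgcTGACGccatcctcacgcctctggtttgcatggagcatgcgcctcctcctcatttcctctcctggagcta
Pcsk2: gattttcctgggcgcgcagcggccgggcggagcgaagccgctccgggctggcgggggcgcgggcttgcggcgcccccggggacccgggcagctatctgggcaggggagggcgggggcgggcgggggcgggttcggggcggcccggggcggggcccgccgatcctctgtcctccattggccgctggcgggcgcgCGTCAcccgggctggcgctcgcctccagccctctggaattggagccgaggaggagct
The full CRE lay 90 to 83 bases before the Vgf start and 123 to 116 bases before the Scg2 start, and 1.59% of all 33469 promoters held it in the same window. The shorter core was found in 6 of the 8 windows (Cpe, Pcsk2, Scg2, Scg3, Scg5 and Vgf) and in 18.2% of all promoters. Vgf was also the only gene of the 8 whose window held TATAAA, which 12.9% of all promoters held, and CCAAT occurred in the Vgf, Scg3 and Pcsk2 windows and in 34% of all. Neither the AP-1 letters nor the EGR letters occurred in any of the 8 windows, against 6.34% and 0.478% of all promoters. These matches describe the letters in a window and not a bound site.

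Silencing with TTX lowered Vgf, Pcsk1 and Scg2, while most of the other genes of the secretory pathway moved little. Of the 10 genes, 3 were lower and 0 higher at an adjusted p under 0.05 and a change of at least 1.5-fold (limma, Benjamini-Hochberg over all probes). Over all genes tested, 4.19% met that rule, 2.7% lower and 1.48% higher. A further 2 genes, Pcsk2 and Scg5, had an adjusted p under 0.05 with a smaller fall, which made 5 of 10 without the fold condition, against 5.4% of all genes that were lower by this rule. The median log2 change of the 10 genes was -0.29, and that of all genes was 0.0123. The TTX arrays lay wholly below the CTL arrays in 5 of the 10 genes, and 8.08% of all genes did so. With the slide or the slide set (slides 1 and 3, or 2 and 4) as a block, Pcsk1n was also under 0.05 without the fold condition, as the 1 gene that was higher, and with the arrays of each group averaged within a slide set 2 genes, Vgf and Pcsk1, were lower by that rule. The slide sets were formed from correlations between these arrays, not from the labels.

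**Figure D1:**
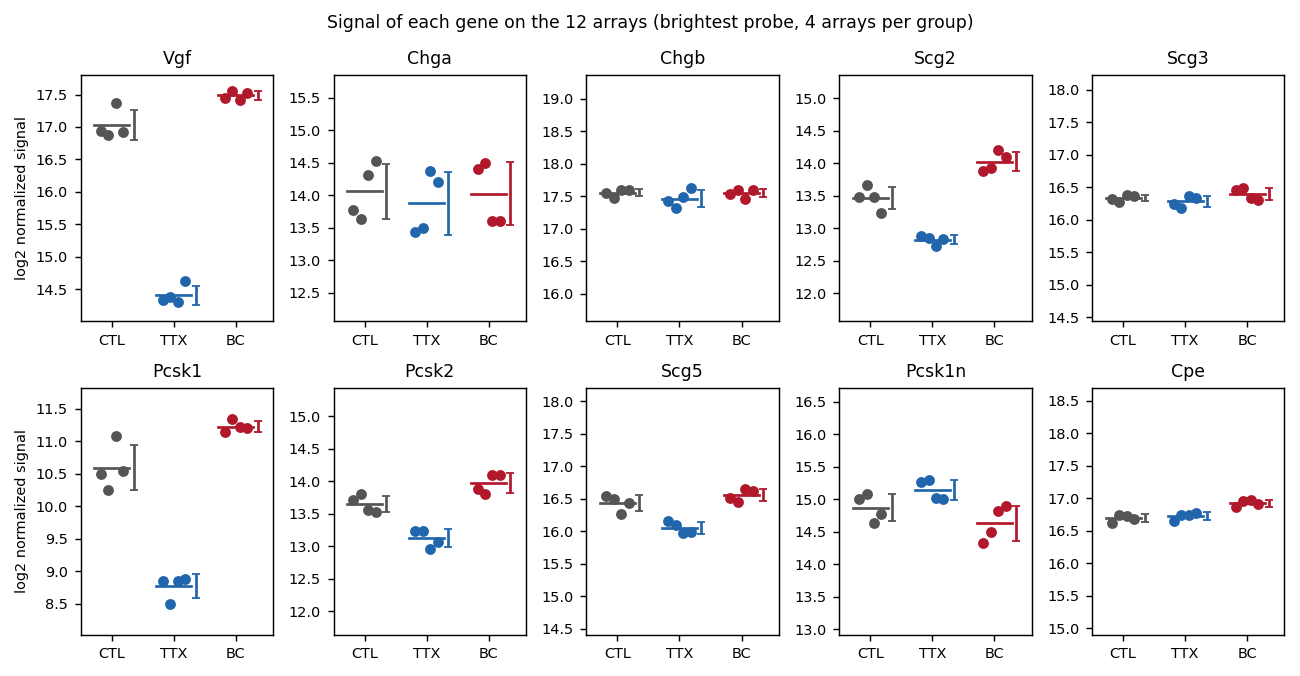
Each panel plots the log2 normalized signal of 1 gene (y axis, all panels spanning the same number of log2 units) in the CTL, TTX and BC groups, with a point per array, a line at the mean of 4 arrays and a bar of 1 SD to its right. Vgf and Pcsk1 sat far lower in TTX, Scg2 was lower in TTX and higher in BC, and the Chga arrays split into an upper and a lower pair in every group.

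Vgf had the largest change of the 10 genes. Its log2 signal was 16.94, 16.88, 17.37 and 16.92 on the CTL arrays, 14.33, 14.38, 14.31 and 14.63 on the TTX arrays, and 17.44, 17.55, 17.42 and 17.53 on the BC arrays. No TTX array came within 2 log2 units of any CTL array, and every BC array was above every CTL array. Vgf fell by 2.61 on the log2 scale with TTX (SE 0.113, 6.12-fold lower, adjusted p = 9.05e-07 in limma). With BC it was 0.46 higher (SE 0.113, 1.37-fold, 95% interval 0.21 to 0.71), short of the fold threshold, with an adjusted p of 0.0307 in limma and of 0.00287 to 0.168 over 26 alternative analyses. Between TTX and BC, which share no arrays, the difference was 8.41-fold (log2 -3.07, adjusted p = 5.79e-08).

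Pcsk1, the convertase that makes the early cuts in most precursors, followed the same order. On its brighter probe the CTL arrays read 10.5, 10.26, 11.09 and 10.54, the TTX arrays 8.86, 8.5, 8.86 and 8.89, and the BC arrays 11.14, 11.35, 11.22 and 11.2. The groups did not overlap in either treatment, although CTL replicate 3 lay just below the lowest BC array. TTX lowered Pcsk1 by 3.53-fold (log2 -1.82, SE 0.158, adjusted p = 6.78e-05), and its other probe fell by 1.40 (SE 0.199, adjusted p = 0.00144). With BC the brighter probe rose by 0.63 (SE 0.158, 1.55-fold, adjusted p = 0.0337), the only gene of the 10 that passed both conditions. That call was lost in 11 of 26 alternative analyses: with a block by replicate number (adjusted p = 0.0572 in limma), with only CTL and BC fitted, with slide sets averaged or taken as a random block, and without CTL replicate 1, 2 or 4 or any BC array (adjusted p 0.0557 to 0.0924). The other probe missed it (log2 0.58, adjusted p = 0.119 in limma), and its BC and CTL arrays overlapped.

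Scg2, the precursor of secretoneurin, was lower in TTX and higher in BC than in CTL. Its log2 signal was 13.48, 13.66, 13.48 and 13.24 in CTL, 12.88, 12.85, 12.73 and 12.84 in TTX, and 13.88, 13.92, 14.2 and 14.1 in BC. The 3 groups did not overlap. The probe lies at chr9:78763534-78763593 on rn4, the build of the array design, and has a reading frame without a stop codon over its 60 bases:
Scg2 probe: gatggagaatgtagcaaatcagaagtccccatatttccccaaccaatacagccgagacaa
With TTX Scg2 fell by 0.64 (SE 0.0985, 1.56-fold lower, adjusted p = 0.00219). Without CTL replicate 2 the fall of 0.58 no longer reached 1.5-fold, and with the arrays of a slide set averaged the adjusted p was 0.0592. With BC it was 0.56 higher (SE 0.0985, 1.47-fold, adjusted p = 0.00573), just short of the fold threshold, which it passed in 4 of 26 alternatives. Between TTX and BC it differed by 2.3-fold (log2 -1.20, adjusted p = 9.56e-06).

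The other granins showed no change against CTL that passed the test. Chgb ranged from 17.47 to 17.6 in CTL, 17.31 to 17.63 in TTX and 17.46 to 17.6 in BC, with log2 changes of -0.09 (95% interval -0.25 to 0.07) and -0.01 (-0.17 to 0.15). Scg3, which binds Chga in the vesicle membrane, changed by -0.05 with TTX and 0.06 with BC on its brightest probe, and its other probes lay between -0.16 and 0.08. These intervals lay within 1.5-fold for Chgb and, on the brightest probe, for Scg3 (-0.20 to 0.09 with TTX and -0.08 to 0.21 with BC). They rest on the scatter between arrays, which may be technical only, and so cannot exclude a larger change between separate cultures. Between TTX and BC, 1 dimmer Scg3 probe was 0.24 higher in TTX (adjusted p = 0.0366 in limma), under the fold threshold. The brightest Scg3 probe gave -0.12 there (adjusted p = 0.264, and 0.0361 with the slide set as a block).

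Across slides Chga could not be measured as closely on its brightest probe. Its brightest probe read 13.77, 13.64, 14.31 and 14.52 in CTL, 13.44, 13.49, 14.37 and 14.2 in TTX, and 14.4, 14.49, 13.6 and 13.61 in BC. In each group the arrays of slides 2 and 4 were the higher ones, by 0.71 in CTL, 0.82 in TTX and 0.84 in BC, and 4.15% of all probes differed more between the slide sets. Its other probe went the opposite way between the sets, by -0.29, -0.25 and -0.01. The changes of the brightest probe were -0.19 with TTX (95% interval -0.86 to 0.49) and -0.03 with BC (-0.71 to 0.64). Those of the other probe were -0.17 (-0.39 to 0.05) and -0.16 (-0.38 to 0.06), and none of the changes passed the test. The intervals of the other probe, which rest on the same scatter between arrays, lay within 1.5-fold, and those of the brightest probe did not. Within slides the brightest probe was lower with TTX on 4 of 4, by -0.28 to -0.11, with an adjusted p of 0.0835 in limma with the slide as a block, and with BC the differences ran from -0.17 to 0.18. What sets the slide sets apart was not tested.

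**Figure D2:**
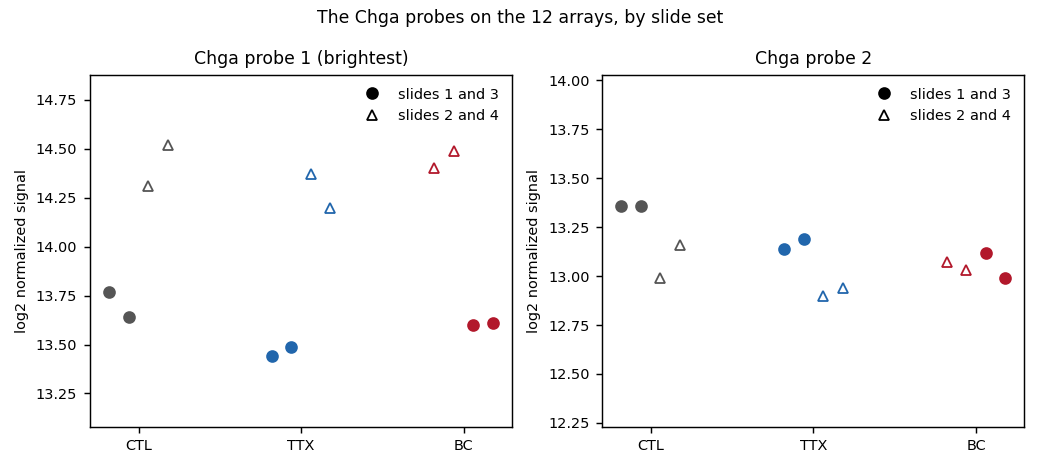
The log2 normalized signal (y axis) of the Chga probes is plotted for the 4 arrays of each group, with filled circles for slides 1 and 3 and open triangles for slides 2 and 4. On the brightest probe the triangles lay above the circles in all 3 groups, and on the other probe they did not.

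Pcsk2 and its chaperone Scg5 were lower with TTX by less than the fold threshold. Pcsk2 read 13.71, 13.8, 13.56 and 13.53 in CTL, 13.24, 13.23, 12.95 and 13.06 in TTX, and 13.88, 13.8, 14.1 and 14.1 in BC. Every TTX array was below every CTL array, whereas CTL and BC met at 13.8. The change with TTX was -0.53 (SE 0.101, 1.45-fold lower, adjusted p = 0.00749) and that with BC was 0.32 (adjusted p = 0.0867 in limma). With the slide as a block the adjusted p with BC was 0.00357, with the slide set as a block 0.000794, and with slide sets averaged 0.101. TTX against BC was called at 1.81-fold lower (log2 -0.85, adjusted p = 0.000129). The other probe gave -0.54 (adjusted p = 0.0637), 0.25 and -0.79. The Pcsk2 probes are printed because they gave like changes near the threshold from separate stretches of the transcript. The brighter one lies at chr3:132255540-132255599, and the bases of the other are spread over chr3:132214575-132225240, so that it crosses a splice junction (rn4, plus strand).
Pcsk2 probe 1: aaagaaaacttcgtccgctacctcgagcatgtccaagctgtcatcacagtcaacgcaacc
Pcsk2 probe 2: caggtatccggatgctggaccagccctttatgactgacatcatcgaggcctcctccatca
Scg5 read 16.54, 16.49, 16.27 and 16.44 in CTL and 16.16, 16.09, 15.97 and 15.99 in TTX, and its BC arrays lay between 16.45 and 16.65. The TTX arrays were again wholly below CTL. The change was -0.38 with TTX (SE 0.077, 1.3-fold lower, adjusted p = 0.00992) and 0.12 with BC (adjusted p = 0.468), and the other Scg5 probe gave -0.50 (adjusted p = 0.00289) and 0.06.

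Pcsk1n, the source of the proSAAS peptides, leaned the opposite way. It read 15.01, 15.08, 14.63 and 14.77 in CTL, 15.26, 15.3, 15.02 and 15 in TTX, and 14.33, 14.49, 14.82 and 14.9 in BC. The TTX arrays were all above the BC arrays, while each group overlapped CTL. The changes of 0.27 with TTX (adjusted p = 0.332) and -0.24 with BC (adjusted p = 0.459) did not pass in limma without a block. With the slide as a block the adjusted p was 0.0242 with TTX and 0.0451 with BC, with the slide set as a block 0.00947 and 0.0206, and with slide sets averaged 0.139 and 0.193. TTX against BC gave 0.51 (1.42-fold, adjusted p = 0.0274), short of the fold threshold. Cpe, the trimming carboxypeptidase, ranged from 16.62 to 16.75 in CTL, 16.65 to 16.78 in TTX and 16.86 to 16.98 in BC. Every BC array of Cpe was above every CTL array, by a mean of 0.24 (1.18-fold, SE 0.0547, adjusted p = 0.0232 in limma, 0.00447 to 0.161 over 26 alternatives), and with TTX the change was 0.03 (95% interval -0.09 to 0.16).

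With BC the brighter Pcsk1 probe was called higher, a call lost in 11 of 26 alternatives. Vgf, Scg2 and Cpe were higher by less than the fold threshold. At both conditions 1 of the 10 genes was higher and 0 were lower, against 3.6% of all genes (2.14% higher, 1.47% lower). Without the fold condition 4 of the 10 were higher (Vgf, Scg2, Pcsk1 and Cpe), against 4.61% of all genes that were higher by this rule, and the same 4 genes had every BC array above every CTL array, which 7.59% of all genes did. With the slide or the slide set as a block Pcsk2 was added to those higher, making 5, and Pcsk1n was lower, whereas 1 gene, Scg2, had an adjusted p under 0.05 with slide sets as a random block or with the replicate block, and 0 had with slide sets averaged in limma. The median log2 change was 0.18, beside -0.00593 for all genes. Between TTX and BC, 4 genes were lower (Vgf, Pcsk1, Scg2 and Pcsk2) and 0 higher, where 10.9% of all genes were called (6.2% lower, 4.67% higher).

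**Figure D3:**
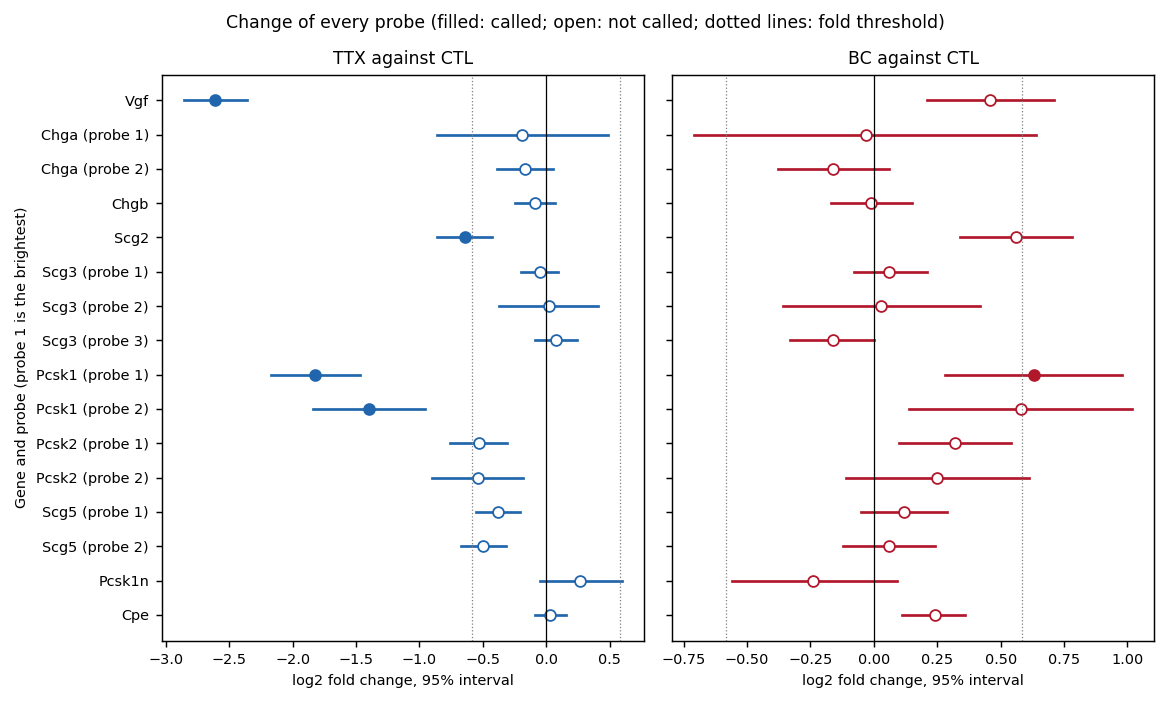
Each row is a probe and the x axis is its log2 change against CTL (left TTX, right BC, on separate scales), with the limma 95% interval as a line, filled points for calls and dotted lines at the fold threshold. With TTX Vgf, Scg2 and both Pcsk1 probes were called, and with BC the brighter Pcsk1 probe alone.

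Each of the 4 slides held 1 array of every group, so each change was also read within a slide. The log2 differences of TTX from CTL were -2.74 to -2.55 for Vgf, -2.20 to -1.40 for Pcsk1, -0.78 to -0.51 for Scg2, -0.58 to -0.48 for Pcsk2 and -0.47 to -0.28 for Scg5, lower on 4 of 4 slides for each. Pcsk1n was higher on all 4 slides, by 0.18 to 0.37. With BC the differences were 0.18 to 0.65 for Vgf, 0.44 to 0.72 for Scg2, 0.26 to 0.94 for Pcsk1, 0.24 to 0.39 for Pcsk2 and 0.16 to 0.36 for Cpe, and Pcsk1n was lower on all 4 slides (-0.43 to -0.14). Smaller differences also kept 1 sign on all 4 slides, namely Chga with TTX (-0.28 to -0.11) and, with BC, Scg3 (0.02 to 0.11) and Scg5 (0.08 to 0.17). Chgb in both treatments, Scg3 and Cpe with TTX and Chga with BC changed sign between slides.

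**Figure D4:**
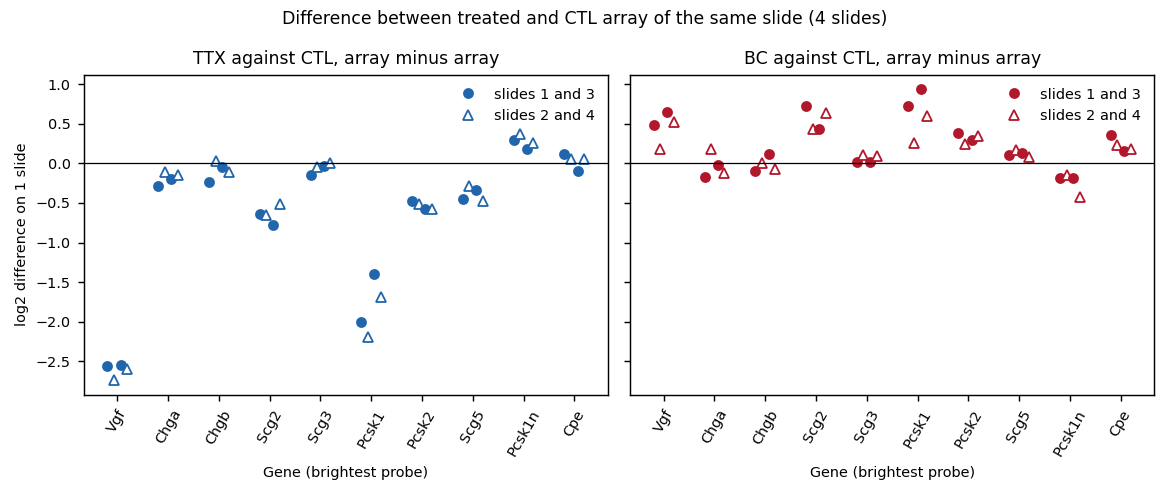
The log2 difference between the treated and the CTL array of the same slide (y axis) is plotted for each gene, with filled circles for slides 1 and 3 and open triangles for slides 2 and 4. Vgf and Pcsk1 were below -1 on every slide with TTX, and Scg2, Pcsk1 and Vgf were above 0 on every slide with BC.

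Partners in 5 pairs were compared within arrays, to ask whether 1 of a pair changed more than the other. With TTX the log2 change of Pcsk1 minus that of Pcsk2 was -1.29, that of Pcsk1 minus its inhibitor Pcsk1n was -2.09, and that of Scg2 minus Scg3 was -0.59. Each had an exact two-sided permutation p of 0.0286, the smallest that 4 against 4 arrays allow, and an adjusted p of 0.0572 over the 10 tests. Pcsk2 and Scg5 differed by -0.15 (exact p = 0.0571) and Chgb and Chga by 0.09 (exact p = 0.657). With BC the differences were 0.50 for Scg2 and Scg3 and 0.20 for Pcsk2 and Scg5 (exact p = 0.0286 each), 0.31 for Pcsk1 and Pcsk2 (exact p = 0.229), 0.87 for Pcsk1 and Pcsk1n (exact p = 0.0857) and 0.03 for Chgb and Chga (exact p = 0.829). None of the 10 passed after adjustment. Every pair at the smallest exact permutation p of 0.0286 got the same adjusted p of 0.0572, whatever its difference. The adjusted p thus depends on how many pairs reach that smallest p, and cannot decide whether a single pair changed unequally.

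The profile of Vgf over the 12 arrays was most like that of Pnoc, the nociceptin precursor, among 24592 genes well above background on every array. The root mean square difference of their mean-centered log2 signals was 0.163, where the median gene was at 1.39. Pnoc read 12.63, 12.57, 13.5 and 12.84 in CTL, 10.25, 10.22, 10.31 and 10.57 in TTX, and 13.58, 13.71, 13.61 and 13.47 in BC, with CTL replicate 3 the highest CTL array as in Vgf. Next came Gipr, the receptor for gastric inhibitory polypeptide (0.271), the unnamed transcript TC594011 (0.296), Nmbr, the neuromedin B receptor (0.316), and Gup1 (0.331). Within the family Pcsk1 was the closest to Vgf, at 0.364, and the next, Scg2, was at 0.924. All of these share the same arrays.

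The rest of the peptide pathway was read from gene lists. As a scale for the counts here and below, TTX called 2.7% of all genes as falling and 1.48% as rising. For BC, 2.14% of all genes rose and 1.47% fell by the same rule. No list was tested against these shares. Among peptide trimming and modification enzymes, 2 of 12 fell with TTX and 3 rose with BC. Pam, the amidating enzyme, had 15.51, 15.55, 15.86 and 15.43 in CTL, 14.22, 14.08, 14.21 and 14.18 in TTX, and 16.55, 16.71, 16.71 and 16.86 in BC. It fell by 1.41 with TTX (SE 0.0985, adjusted p = 1.79e-05 in limma) and rose by 1.12 with BC (adjusted p = 9.97e-05), with no overlap between any of the groups. Qpct, which cyclizes terminal glutamine, rose by 0.70 and Ece1, an endopeptidase, by 0.60 with BC. The other enzyme called with TTX, Cpm, stayed near background on every TTX and CTL array and is given no fold. Of 7 other proprotein convertases 0 were called with TTX in limma, and with BC Pcsk4 rose by 0.75. Among 18 genes of dense-core vesicle assembly and release, Rab27b (-0.74), a vesicle GTPase, and Resp18 (-0.68), an endocrine vesicle protein, fell with TTX and 0 were called with BC. The list medians were -0.11, -0.07 and -0.10 with TTX and 0.16, 0.19 and -0.02 with BC, in the order trimming enzymes, convertases and vesicle genes.

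Peptide precursors, the cargo of these vesicles, were counted next. Of 23 peptide precursors 12 fell with TTX and 0 rose (median -1.06), and with BC 9 rose and 1 fell (median 0.47). The largest falls were in Cort (-3.95), Pthlh (-3.26), Pnoc (-2.55) and Tac1 (-1.95), and the largest rises with BC in Crh (2.55), Pthlh (1.59), Gal (1.56) and Cort (1.19). Vgf, Pcsk1 and Pam moved in the same directions as these precursors, and Chgb, Scg3 and Cpe did not fall with TTX beyond their spread. Of 14 activity-regulated genes 4 fell with TTX (Nr4a1 -1.34, Arc -1.24, Npas4 -0.83 and Nr4a2 -0.74), and with BC 4 rose and 2 fell, with Npas4 at 1.23, Nr4a2 at 1.17, Nr4a1 at 0.87 and Egr2 at -1.62.

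**Figure D5:**
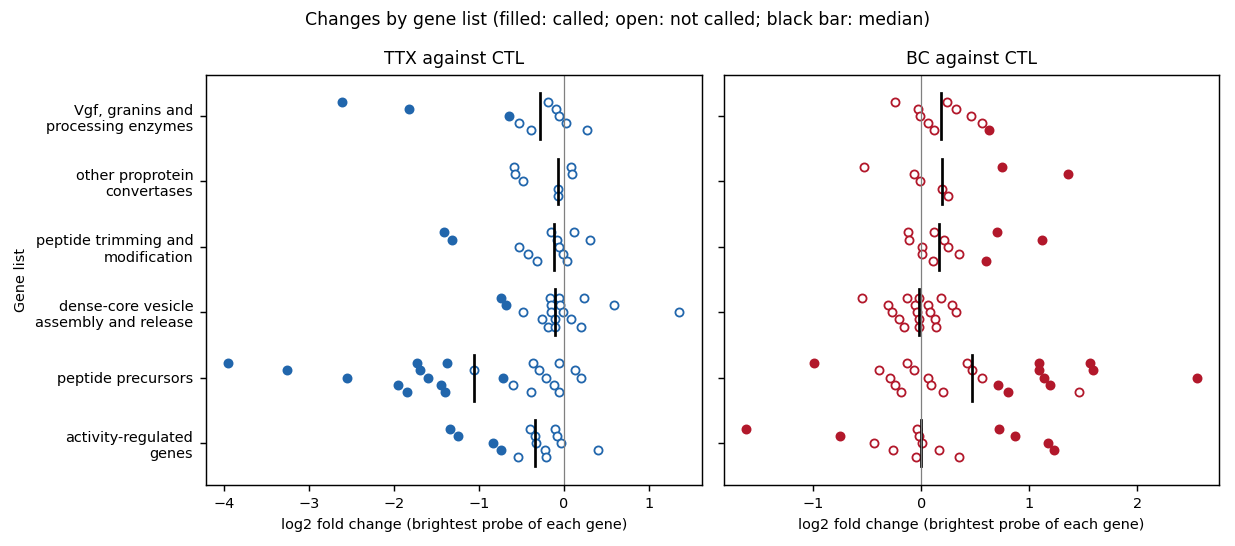
Each point is a gene of the list on the y axis, placed by its log2 change against CTL (left TTX, right BC, on separate scales), filled where called and with a black bar at the list's median. Peptide precursors were shifted furthest, with medians of -1.06 and 0.47, beside -0.29 and 0.18 for Vgf, the granins and the processing enzymes.

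Markers of GABAergic interneurons, which make many of these peptides, moved with the same groups. Of 16 interneuron markers 10 fell and 1 rose with TTX, and their summed log2 signal was 17.21 to 17.27 in TTX, against 18.36 to 18.57 in CTL and 18.75 to 18.95 in BC. All 16 were well above background on all 12 arrays. Cort fell by 3.95, Sst by 1.69, Gad1, which makes GABA, by 1.56 and Npy by 1.40 with TTX, whereas with BC 3 rose (Cort, Vip and Npy, by 1.19, 1.09 and 0.80) and Calb2 fell by 0.80. The 8 glutamatergic markers gave 2 rises with TTX (Neurod2 0.75, Slc17a6 0.59) and 2 falls with BC (Neurod2 and Prox1, -0.72 each), with a summed log2 signal of 15.1 to 15.43 in CTL, 15.68 to 15.86 in TTX and 14.63 to 14.91 in BC. Of 5 general neuronal markers 0 were called in either comparison in limma. Astrocyte and microglia lists had 0 calls of 8 each in limma, with 8 and 4 of their markers well above background on all 12 arrays. Of 12 endothelial, mural and fibroblast markers 3 fell with TTX and 3 rose with BC, among them Lum (-0.98 and 0.85) and Dcn (-0.62 and 0.87). The part of these cell types in the changes of Vgf, Pcsk1 and Scg2 was not tested, and in RNA from a whole culture fewer cells of a type cannot be told apart from less RNA per cell. Gapdh, a control gene, changed by -0.26 with TTX (95% interval -0.42 to -0.11, adjusted p = 0.037 in limma), under the fold threshold as Pcsk2 and Scg5 were, and by 0.03 with BC (adjusted p = 0.91).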

How the data were processed

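RNA from 12 samples (4 each of CTL, TTX and BC) was measured on single-color Agilent arrays on 4 slides. The authors deposited scanner intensity values from Feature Extraction 9.5.1.1, background-subtracted within the array and not normalized between arrays, and quantile-normalized log2 values, for which the submitters' processing notes name limma. Processed signals without outlier spots were taken to log2 and quantile-normalized, which forces equal distributions on all arrays. A linear model with 1 mean for each of the 3 groups was fitted to the 12 arrays in limma 3.58.1 (R 4.3.3), and calls needed a Benjamini-Hochberg adjusted p under 0.05 over all probes and a change of at least 1.5-fold (or at most 0.667). The brightest probe stood for a gene, and no filter on dim probes was applied. Between 74.1 and 78.1% of probes per array were well above background. Precision is limited by the number of arrays.

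Members, gene lists and tests were chosen with earlier results of these data known. The genes named are the members, up to 4 called genes with the largest change per list and comparison with CTL, the 5 genes closest in profile to Vgf, and Gapdh. Pairs of members were compared with exact permutation tests. Sequences are from RefSeq (GRCr8) and, for probes, from the array files (rn4). Python 3.11.15 and matplotlib 3.10.9 drew the figures. The fit was also run on simulated data with noise drawn independently for each array. The arrays here were correlated within slide sets, so that run cannot show the error rate of the fit in these data. Some called genes of the lists are not reported here.

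After group means were removed, same-numbered CTL and TTX arrays correlated at 0.28 to 0.38, and always lay in the same slide set, while CTL and BC arrays correlated at -0.35 to -0.24 and always lay in different sets. A pairing by number therefore cannot be told apart from the slide set. Arrays of different groups correlated at 0.2 to 0.41 within slides 1 and 3 or slides 2 and 4, and at -0.39 to -0.2 across these sets. The sets were formed from these same correlations and are not named in the labels. The correlations are therefore no separate evidence for the sets, and analyses that use the sets rest on a grouping taken from these data. Alternatives covered background correction, normalization, the deposited values, dim probes, slide, replicate block, groups fitted, variance model, probe choice and each array left out.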

Additional observations from a re-analysis of the deposited data

Results flagged for a closer look

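In 2 of the 30 groups of 4 arrays (10 genes by 3 groups), 1 array stood apart by Dixon's test at its 95% critical value of 0.829. Vgf on CTL replicate 3 read 17.37, above the other CTL arrays at 16.88 to 16.94, and Pcsk1 on TTX replicate 2 read 8.5, below the others at 8.86 to 8.89. Chance marks about 1 in 20 such groups. Without CTL replicate 3 the change of Vgf with TTX stayed called, as it did in all 26 alternatives (log2 -2.68 to -2.5).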

How the results depend on the processing

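The falls of Vgf and Pcsk1 with TTX were called under all 26 alternatives (log2 -2.68 to -2.5 and -1.93 to -1.61), and that of Scg2 under 24 (-0.72 to -0.58). With BC, 2 members were called higher with the deposited log2 values, and 0 with a random block for arrays of 1 group and 1 slide set, with such arrays averaged, with only the 2 groups compared and with the replicate block. In the averaged analysis BC had 0 calls among all probes in limma, with 9133 at an unadjusted p under 0.05. The block by replicate number changed no other call of a member. Leaving out 1 array at a time gave 0 to 1 members higher with BC (0 without CTL replicate 1, CTL replicate 4, BC replicate 3 or BC replicate 4) and 0 to 1 higher in TTX against BC (Pcsk1n at 0.60, without BC replicate 4).

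Signs turned only in values near 0 that were never called. With the mean of all probes Scg3 gave 0.01 with TTX, -0.02 with BC and 0.04 in TTX against BC. With BC, Chga and Chgb gave 0.03 and 0.05 with the deposited values, and -0.19 to 0.12 and -0.03 to 0.02 when 1 array was left out. In TTX against BC, Chgb gave 0.1 with the 75th percentile, and Chga gave -0.32 to 0 when 1 array was left out.

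Among the pairs, the adjusted p fell under 0.05 with normexp for Pcsk1 and Pcsk2 (-1.18), Pcsk2 and Scg5 (-0.16), Pcsk1 and Pcsk1n (-1.98) and Scg2 and Scg3 (-0.59) with TTX, and for Pcsk2 and Scg5 (0.19) and Scg2 and Scg3 (0.50) with BC. With the deposited values these were -1.21, -0.13, -1.99, -0.57, 0.18 and 0.49. In both settings each of these pairs had the smallest exact permutation p, 0.0286. In the main analysis Pcsk2 and Scg5 with TTX had 0.0571 and the rest 0.0286. The adjusted p of the rest therefore fell only because that pair joined them, not through larger differences. Chgb and Chga turned with BC to 0 with normexp and -0.08 with the 75th percentile. Leaving out arrays gave, with TTX, -1.45 to -1.10 for Pcsk1 and Pcsk2, -2.27 to -1.85 for Pcsk1 and Pcsk1n, -0.68 to -0.51 for Scg2 and Scg3 and -0.05 to 0.25 for Chgb and Chga. With BC the ranges were 0.15 to 0.50, 0.68 to 1.11, 0.41 to 0.58 and -0.13 to 0.16 for the same pairs and 0.16 to 0.23 for Pcsk2 and Scg5. Without CTL replicate 3 the adjusted p of Pcsk1 and Pcsk2 (-1.10 and 0.50), Pcsk1 and Pcsk1n (-1.85 and 1.11), Scg2 and Scg3 (-0.60 and 0.48) and, with BC, Pcsk2 and Scg5 (0.22) fell under 0.05. Each had an exact permutation p of 0.0286 there, and the adjusted p again depends on how many pairs reach it. The causes were not tested.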
